A study of Mus musculus with 15 samples.

Results

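The transcriptome of inguinal white adipose tissue, the subcutaneous fat pad of the groin, was compared between CL-treated mice aged 12 months (Old_CL, n = 4 libraries) and vehicle-treated mice aged 2 months (Young_Ctrl, n = 4 libraries). The comparison asks for which genes 5 days of CL in the older mice reached, passed or missed the level of the younger vehicle pad. All 24015 genes of the deposited table were considered, and the 15288 that passed the filter on low counts were tested. The members are the 8 libraries carrying these 2 labels, out of 15 libraries in the series. Vehicle-treated mice aged 12 months (Old_Ctrl, n = 3 libraries) are given beside the main genes as the level without CL, and the series also holds CL-treated mice aged 2 months (Young_CL, n = 4 libraries), which entered the model fit. All mice were C57BL/6, all were kept at thermoneutrality for 2 weeks, and all then received intraperitoneal injections for 5 days. Age and CL both differ between the 2 groups, so the contrast gives where the treated older pad stood and not what either factor did alone. In the labels CL is written out as cardiolipin, but a beta-adrenergic agonist is commonly shortened to the same letters. The injected compound is therefore uncertain, and it is called CL throughout. Neither sex nor whether libraries came from different animals is given, and the p-values rest on library-to-library spread, which may be technical.

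White fat cells store triglyceride in a single large droplet and release it by lipolysis. Under cold or beta-adrenergic signals the inguinal pad gains beige fat cells, which hold many mitochondria and can dissipate the proton gradient as heat through uncoupling protein 1 (Ucp1). Thermoneutral housing removes the cold signal, and the pad then looks white. Fat pads also hold macrophages, lymphocytes, vessels, nerves, fibroblast-like progenitor cells and often a lymph node, all of which contribute RNA to a sample of the whole pad.

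The Young_Ctrl libraries held 7066687 to 14796440 counts and the Old_CL libraries 15723586 to 40235461. Levels below are CPM, each gene's counts relative to the library size, scaled by the trimmed mean of M-values (TMM). The TMM factors were 1.08 to 1.22 in Young_Ctrl and 0.846 to 0.892 in Old_CL. A level of 3 counts corresponded to 0.395 CPM in Young_Ctrl 1, the least deeply sequenced of the 8 libraries, and to 0.0882 CPM in Old_CL 3, the most deeply sequenced. Libraries Old_CL 1, 2 and 4 were close to one another, with a robust SD of log2 differences between pairs of at most 0.0933, although their counts differed by more than sampling noise. Old_CL 3 stood apart from them, with a robust SD of 0.212 to 0.229, and not only in muscle transcripts. The mean log2 CPM of 16 skeletal muscle markers was 6.84 there and 3.33 to 3.61 in the other Old_CL libraries. In Young_Ctrl it was 1.36 to 4.29, and 14 of these 16 genes were undecided between the groups. Other lists and genes in which Old_CL 3 stood apart are given near the end. The Young_Ctrl libraries were less alike, with a robust SD of up to 0.747 between libraries 1 and 4. The fat cell markers of the pad were present in every library, and the mean log2 CPM of the 24 adipocyte genes was 9.13, 8.58, 8.31 and 8.06 in Young_Ctrl 1, 2, 3 and 4 and 10.11 to 10.15 in Old_CL. T cell markers ran the other way, at 5.86, 6.21, 6.56 and 6.74 in the same Young_Ctrl libraries and at 3.97 to 4.60 in Old_CL. The plot of list scores by library shows these levels.

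**Figure D1:**
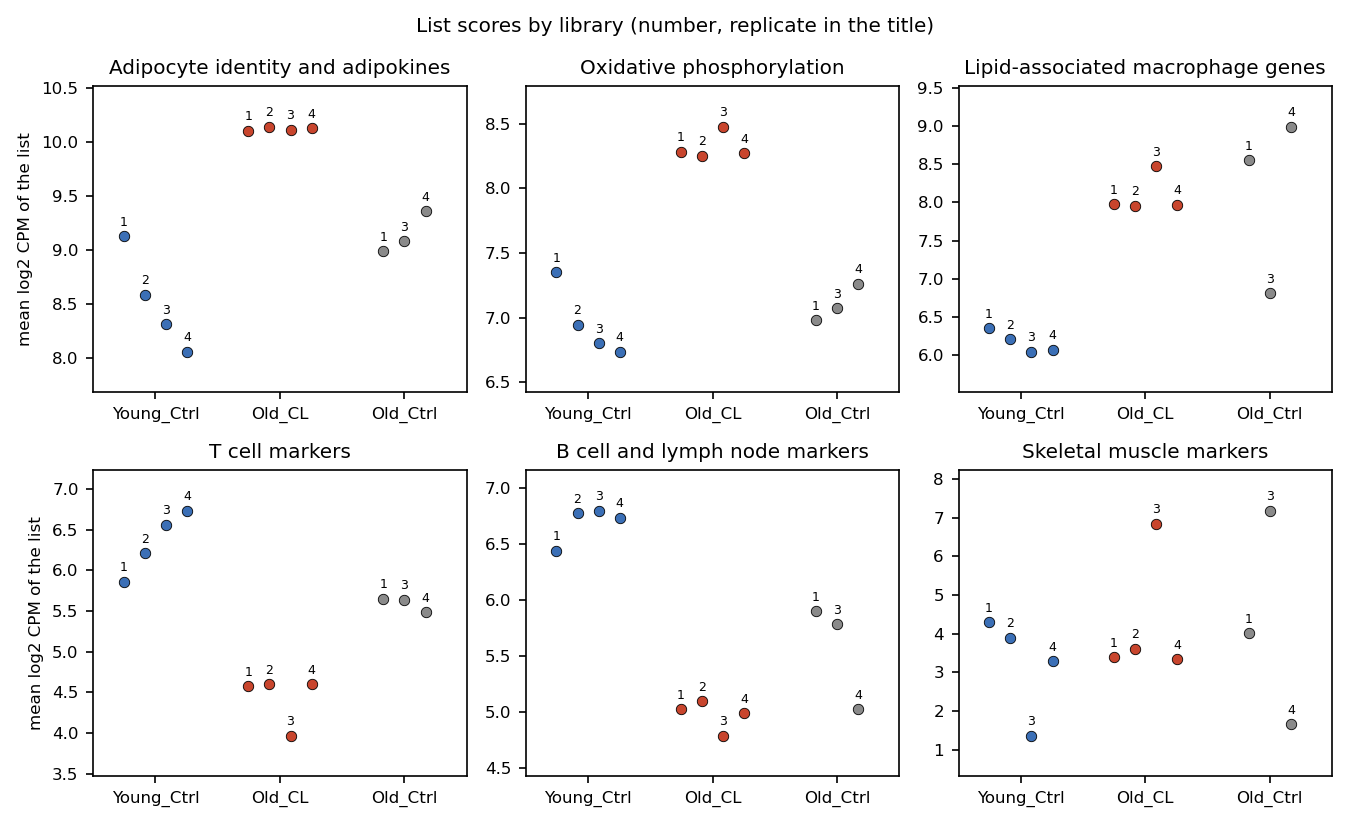
Mean log2 CPM (vertical axis) of the members of 6 gene lists in each Young_Ctrl, Old_CL and Old_Ctrl library (horizontal axis), 1 point a library with its replicate number. Old_CL lies above Young_Ctrl for the adipocyte and oxidative phosphorylation lists and below it for the T cell and B cell lists, and Old_CL 3 stands alone among the Old_CL libraries at 6.84 for skeletal muscle.

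The CL-treated pad at 12 months differed from the young vehicle pad in both directions. Fat cell, mitochondrial and beige fat genes stood above the young level, lymphocyte, class II, cell cycle and nerve sheath genes stood below it, and Srebf1, Acly, Pparg, Lyz2, Mmp14 and other single genes lay within 2-fold of it. A gene was called when the adjusted p of edgeR's quasi-likelihood test was under 0.05, and it was counted as within 2-fold when the 95% interval of its log2 change lay between -1 and 1. Of the 15288 genes tested, 9687 (63.4%) were called, 5167 higher (33.8%) and 4520 lower (29.6%) in Old_CL than in Young_Ctrl. The interval lay within 2-fold for 8515 genes (55.7%), of which 4170 were also called, so that many called differences were small. Genes that were called and outside that bound numbered 2956 higher (19.3%) and 2561 lower (16.8%). A further 4345 genes (28.4%) lay within 2-fold without a call, and 1256 (8.22%) were neither called nor within 2-fold and are called undecided here. Counts of list members below are to be read beside these shares of all genes. The libraries of both groups did not overlap in 8851 genes (57.9%): in 4841 (31.7%) every Old_CL library lay above every Young_Ctrl library, and in 4010 (26.2%) every one lay below. RNA of the whole pad was measured, so a lower level from fewer cells of a type and one from less RNA per cell cannot be told apart.

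These shares depend on what a level is measured against. With library totals in place of TMM factors the median change of all genes moved from 0.05 to -0.37 on the log2 scale, and 2699 genes were called higher and 7772 lower. When libraries were instead scaled to equal means of the adipocyte list, 285 genes were called higher and 13622 lower. The B cell and lymph node score separated the groups without overlap, at 6.44 to 6.80 in Young_Ctrl and 4.79 to 5.10 in Old_CL. With that score as a covariate the median SE of the log2 change rose from 0.15 to 0.41 and 14 genes were called, 12 higher and 2 lower, of which 13 were also called without it. Of the genes named below, Gldc, Mest and Acaa1b were called higher and Itm2a lower with that covariate. Because the score separates the groups, keeping a call under it does not tell group and lymphoid content apart. For these genes, as for every other call below, the 2 cannot be told apart. Library totals also turned Nnat (-0.52), Lyz2 (-0.54) and Mmp14 (-0.45), which lie within 2-fold below, into lower calls.

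**Figure D2:**
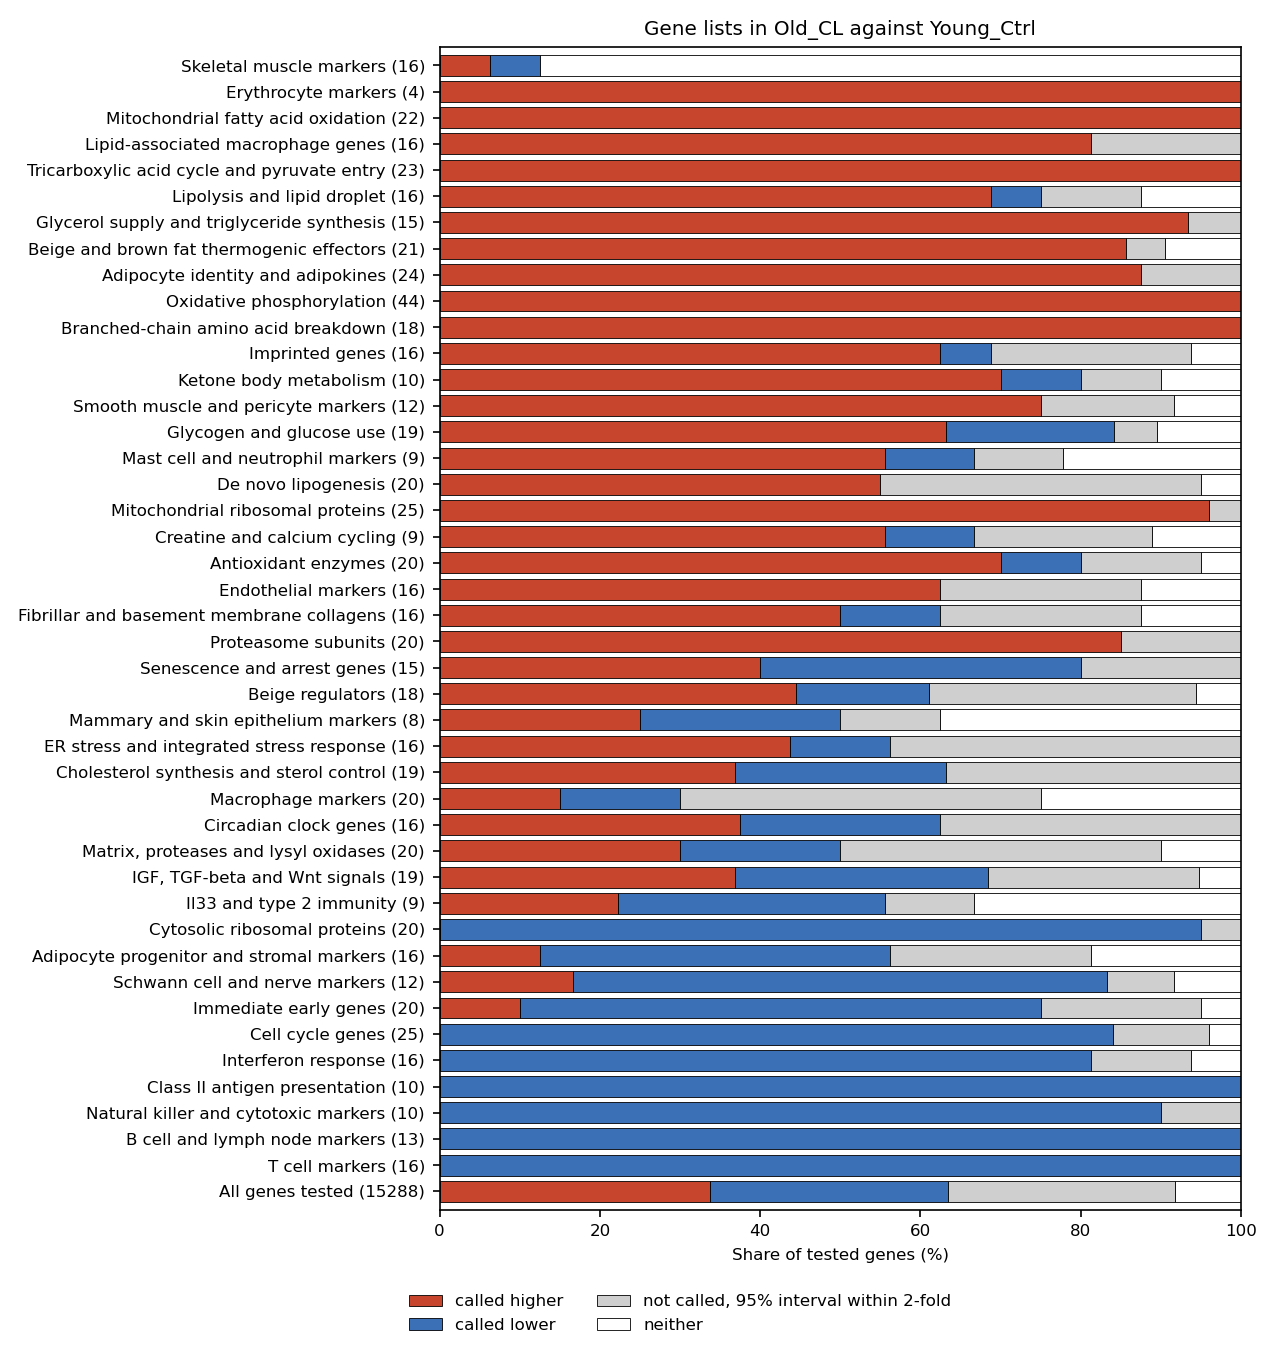
Share of the tested members of each of 43 gene lists (vertical axis, number tested in parentheses, ordered by median change) that were called higher, called lower, not called but within 2-fold, or neither, in Old_CL against Young_Ctrl. The bottom bar gives the same for all 15288 genes tested (33.8% higher, 29.6% lower). The fuel oxidation lists are wholly called higher and the T cell and B cell lists wholly called lower.

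Genes of thermogenic fat passed the young level. Of 21 beige and brown fat effectors tested, 18 were called higher and none lower, with a median log2 change of 1.49 against 0.05 for all genes. In the vehicle pad at 12 months 2 of them were above the young level and 5 below it, where 15.1% and 12.2% of all genes were. Both comparisons use the same Young_Ctrl libraries, so their values are set side by side here and not tested against each other. Ucp1 stood at 26.4, 9.11, 8.59 and 7.74 CPM in Young_Ctrl 1, 2, 3 and 4, and at 57.8, 56.3, 94 and 66 CPM in Old_CL 1, 2, 3 and 4. All Old_CL libraries lay above all Young_Ctrl libraries, and Young_Ctrl 1 was the highest of its group. The log2 change was 2.46 (SE 0.38, adjusted p = 0.000105). The 12-month vehicle level was 2.76 ± 1.34 CPM (SD, n = 3), lower than the young one (log2 change -2.08, adjusted p = 0.00713). Cidea, a lipid droplet protein of brown and beige fat, read 120, 53.9, 29.9 and 30.5 CPM in Young_Ctrl and 150.2, 129, 186 and 161 CPM in Old_CL, a change of 1.43 (SE 0.35, adjusted p = 0.00287), or 2.04 without Young_Ctrl 1. The Old_CL values again lay above all young ones, the nearest being Young_Ctrl 1. In the vehicle pad at 12 months Cidea stood below the young level, at 15.1 ± 3.97 CPM (SD, n = 3, log2 change from young -1.94, adjusted p = 0.00482).

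Other effectors went further. Cox8b, the cytochrome oxidase subunit of brown fat and muscle, was at 32.4, 20.2, 12.7 and 12.8 CPM in Young_Ctrl and 255, 273, 284 and 276 CPM in Old_CL, a log2 change of 3.83 (SE 0.25, adjusted p = 1.83e-07). Otop1, a proton channel found in brown fat, rose from 3.89 ± 2.02 CPM (SD, n = 4) to 42.3 ± 4.05 CPM (SD, n = 4), a log2 change of 3.55 (SE 0.27, adjusted p = 3.4e-07). Dio2, which makes active thyroid hormone within the cell, was higher by 2.88 (SE 0.34, adjusted p = 3.29e-06). Elovl3, an elongase of very long fatty acids that marks activated brown and beige fat, was at or under 0.35 CPM in every Young_Ctrl library and at 9.77, 10.03, 27.2 and 9.79 CPM in Old_CL, where library 3 stood highest. Its log2 change was 5.89 (SE 0.82, adjusted p = 1.58e-06), and 5.34 without Old_CL 3. In Young_Ctrl 1 and 2 it read 0.263 and 0 CPM, under 3 counts, so the size of this change is uncertain. Cox7a1, another cytochrome oxidase subunit of muscle and brown fat, changed by 2.75 (SE 0.32, adjusted p = 8.04e-06). Cox8b and Cox7a1 are also muscle genes, and without the muscle-rich Old_CL 3 their changes were 3.81 and 2.59.

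The regulators of this programme had a median change of 0.38. Of 18 beige regulators 8 were called higher and 3 lower, which became 3 and 6 with library totals, and 12 had intervals within 2-fold. Of all genes 33.8% were called higher, 29.6% were called lower and 55.7% had intervals within 2-fold. Prdm16, a coregulator that sets beige fat identity, read 15, 20.6, 8.94 and 8.4 CPM in Young_Ctrl and 25.1, 25.4, 16.8 and 25.6 CPM in Old_CL, a log2 change of 0.83 (SE 0.24, adjusted p = 0.00836) that missed the threshold when Old_CL 1, 2 and 4 were summed into 1 sample (adjusted p = 0.0712) or with library totals as scaling (adjusted p = 0.148). Ppargc1a, the coactivator of mitochondrial biogenesis, counted here among the effectors, was 11.4, 7.39, 7.07 and 5.29 CPM in Young_Ctrl and 11.1, 11.4, 10.1 and 11.8 CPM in Old_CL. Its change of 0.54 (SE 0.23, adjusted p = 0.0527) did not pass, and without Young_Ctrl 1 it was 0.76 (adjusted p = 0.00601). Pparg, the nuclear receptor required for fat cell differentiation, lay within 2-fold at 0.41 (SE 0.25, adjusted p = 0.16), and so did Adrb3, the beta-adrenergic receptor of fat cells, at 0.40 (SE 0.23, adjusted p = 0.148). For both, Young_Ctrl 1 lay above every Old_CL library and the other Young_Ctrl libraries lay below, and without Young_Ctrl 1 both were called higher (0.85 and 0.84).

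**Figure D3:**
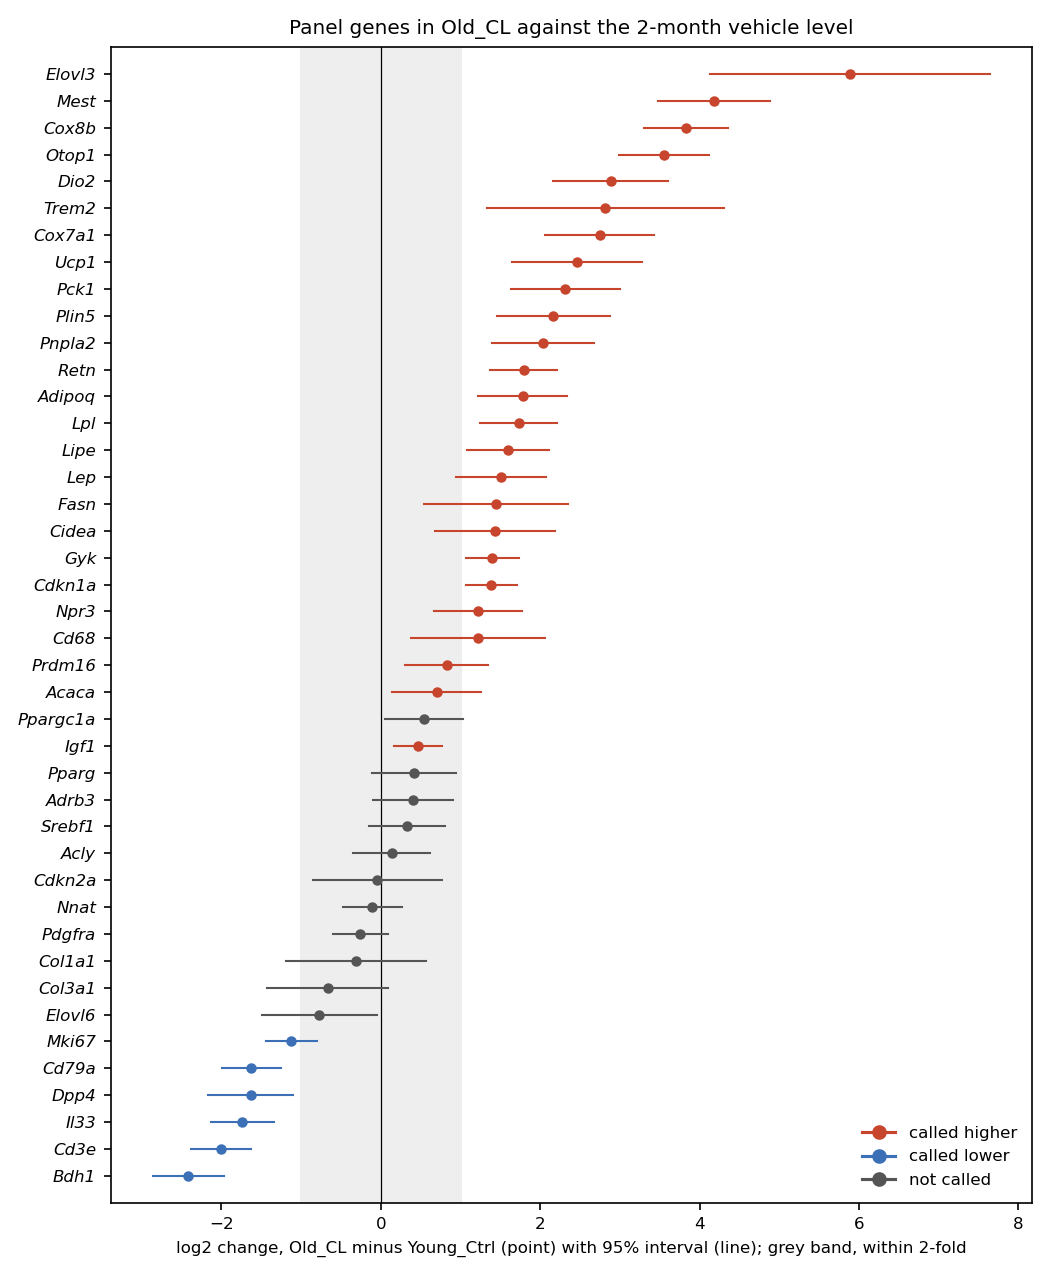
Log2 change of the 42 panel genes in Old_CL against Young_Ctrl (horizontal axis, points) with 95% intervals (lines), colored by call, over a grey band that marks 2-fold in either direction. Elovl3, Mest and Cox8b lie highest (5.89, 4.18 and 3.83), Nnat, Acly and Cdkn2a lie inside the band, and Cd3e and Bdh1 lie lowest (-2.01 and -2.41).

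Mitochondrial fuel oxidation passed the young level as a block. All 44 oxidative phosphorylation genes tested, all 23 genes of the tricarboxylic acid cycle and pyruvate entry, all 22 of fatty acid oxidation and all 18 of branched-chain amino acid breakdown were called higher, with medians of 1.39, 1.62, 1.87 and 1.35. Under every scaling tried apart from the adipocyte-list scaling, at least 43 of the 44 respiratory chain genes stayed called higher. List members were not counted under the adipocyte-list scaling, where the median change of all genes was -1.60. Whether these lists would stay above the young level on that scale is therefore not given. At 12 months with vehicle the same lists held 2, 1, 4 and 0 genes above the young level and none below it. Cyc1, the cytochrome of respiratory complex III, was at 194, 154, 126 and 113 CPM in Young_Ctrl, 531, 535, 618 and 529 CPM in Old_CL and 141, 153 and 178 CPM in Old_Ctrl 1, 3 and 4. The vehicle groups overlapped and Old_CL lay above both, with a change from Young_Ctrl of 1.91 (SE 0.15, adjusted p = 4.34e-07). Idh3a, a subunit of the cycle's isocitrate dehydrogenase, changed by 2.38 (SE 0.21, adjusted p = 7.44e-07), and Mdh2, the mitochondrial malate dehydrogenase, by 2.10 (SE 0.16, adjusted p = 3.4e-07).

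For fatty acid oxidation, Acadm, the medium-chain acyl-CoA dehydrogenase, read 325, 209.5, 188 and 169 CPM in Young_Ctrl and 980.3, 952, 1310 and 1070 CPM in Old_CL, a change of 2.28 (SE 0.19, adjusted p = 6.1e-07). Slc25a20, the carnitine carrier of the inner membrane, changed by 2.29 (SE 0.19, adjusted p = 5.13e-07). Young_Ctrl 1 was the highest young library for both, and no library of the groups overlapped. Acaa1b, a peroxisomal thiolase, was among the 10 largest increases of genes with a mean log2 CPM of 3 or more and no overlap, at 3.99 (SE 0.19, adjusted p = 1.05e-08), although reads shared with its near copy Acaa1a could have been split between both. In amino acid breakdown, Pcca, a subunit of propionyl-CoA carboxylase, changed by 1.96 (SE 0.19, adjusted p = 1.27e-06), and Bckdha, a subunit of the branched-chain keto acid dehydrogenase, by 1.74 (SE 0.19, adjusted p = 3.43e-06). Gldc, which cleaves glycine in mitochondria, was at 2.76, 1.63, 1.17 and 1.17 CPM in Young_Ctrl and 36, 37, 37.9 and 38.7 CPM in Old_CL, a change of 4.58 (SE 0.23, adjusted p = 1.01e-08) and the smallest p of the named genes that rose. It stood at 9.23 ± 2.4 CPM (SD, n = 3) with vehicle at 12 months. The mitochondrial ribosome followed to a lesser degree: 24 of 25 of its proteins were called higher with a median of 0.77, 12 of the 25 intervals lay within 2-fold, and with library totals 17 were called higher and 1 lower. Antioxidant enzymes were called higher in 14 of 20 cases and lower in 2, which became 9 and 4 with library totals. Among them were Cat, the peroxisomal catalase, at 2.50 (SE 0.26, adjusted p = 2.16e-06) and Sod3, the extracellular superoxide dismutase, at 2.33 (SE 0.22, adjusted p = 9.3e-07), while Txnrd1, the cytosolic thioredoxin reductase, lay within 2-fold at 0.04 (SE 0.08, adjusted p = 0.645) and was called lower with library totals (-0.37).

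White fat cell genes passed the young level too. Of 24 adipocyte identity genes and adipokines, 21 were called higher and 3 lay within 2-fold, with a median of 1.48. Adipoq, the adipokine adiponectin, was at 2602, 1366, 1049 and 877 CPM in Young_Ctrl and 4400, 4832, 6093 and 4956 CPM in Old_CL, a change of 1.78 (SE 0.26, adjusted p = 4.22e-05). Lep, the adipokine leptin, read 1055, 568, 462 and 393 CPM and 1627, 1892, 1836 and 1689 CPM, a change of 1.51 (SE 0.26, adjusted p = 0.000182). Both kept the groups apart, with Young_Ctrl 1 the nearest library to Old_CL. The 12-month vehicle means were 2182 ± 423 CPM (SD, n = 3) for Adipoq and 685 ± 149 CPM (SD, n = 3) for Lep, and neither was called against the young level (log2 change 0.57, adjusted p = 0.143 and log2 change 0.15, adjusted p = 0.733). Retn, the adipokine resistin, changed by 1.79 (SE 0.20, adjusted p = 3.13e-06). Cfd, the adipokine adipsin, lay within 2-fold at 0.14 (SE 0.23, adjusted p = 0.607).

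Lipid handling genes rose with them. In the list of glycerol supply and triglyceride synthesis 14 of 15 genes were called higher, and in the list of lipolysis and lipid droplets 11 of 16 were, with 1 lower. Pck1, which feeds glycerol synthesis, was at 1815, 1467, 822 and 708 CPM in Young_Ctrl and 5776, 5954, 6354 and 5864 CPM in Old_CL, a change of 2.32 (SE 0.32, adjusted p = 2.92e-05). Gyk, the glycerol kinase, changed by 1.40 (SE 0.16, adjusted p = 3.13e-06). Its 12-month vehicle level of 6.52 ± 1.68 CPM (SD, n = 3) stood beside a young mean of 8.3 ± 1.27 CPM (SD, n = 4) and was not called against it (log2 change -0.42, adjusted p = 0.0916). Pnpla2, the lipase that starts triglyceride breakdown, changed by 2.04 (SE 0.30, adjusted p = 4.41e-05), Lipe, the hormone-sensitive lipase, by 1.60 (SE 0.24, adjusted p = 5.06e-05), and Plin5, a droplet protein of oxidative tissue, by 2.16 (SE 0.33, adjusted p = 8.47e-05). Lpl, which takes up fatty acids from lipoproteins, changed by 1.73 (SE 0.23, adjusted p = 1.42e-05), and Lpin1, a phosphatidate phosphatase, by 2.54 (SE 0.26, adjusted p = 2.23e-06). G0s2, an inhibitor of the first lipase, did not follow: it read 272, 474, 262 and 242 CPM in Young_Ctrl and 394, 312, 200.1 and 354 CPM in Old_CL, and its interval lay within 2-fold at 0.01 (SE 0.25, adjusted p = 0.971).

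Because the adipocyte list itself had a median of 1.48, each list was also set beside that value. Of the 21 thermogenic effectors, 9 had an interval wholly above it, Ucp1, Cox8b, Cox7a1, Dio2, Elovl3, Otop1 and Slc25a20 among them, and 6 had an interval wholly below it. In fatty acid oxidation 10 of 22 and in the tricarboxylic acid cycle 8 of 23 intervals lay above and 2 in each lay below, in oxidative phosphorylation 4 of 44 lay above and 16 below, and in branched-chain amino acid breakdown 1 of 18 lay above and 5 below. For the other 24 respiratory chain genes the interval held the median of the adipocyte list. Slc25a20 and Cpt1b are counted both among the effectors and in fatty acid oxidation. Other lists also held intervals above that median. They were 5 of 16 imprinted genes (8 below), 3 of 15 triglyceride synthesis genes (4 below) and 3 of 12 smooth muscle and pericyte markers (5 below), among others. The median was used as a fixed value, without an error of its own.

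Among the 10 largest increases of that kind, Hspb7, a small heat shock protein of muscle and fat, was at 1.05, 0.344, 0.234 and 0.39 CPM in Young_Ctrl and 18.1, 26.3, 43.9 and 18.4 CPM in Old_CL, a change of 5.92 (SE 0.88, adjusted p = 1.79e-05), and of 5.56 without the muscle-rich Old_CL 3. In Young_Ctrl 2 and 3 Hspb7 was close to the level of 3 counts (0.258 and 0.175 CPM), so the size of its change is uncertain. Kcnj15, a potassium channel, changed by 4.17 (SE 0.35, adjusted p = 8.57e-07), and Arhgef37, a predicted exchange factor for small GTPases, by 4.45 (SE 0.33, adjusted p = 1.35e-07). Mest, an imprinted gene linked to fat cell enlargement, was at 9.997, 25.5, 12.4 and 13.1 CPM in Young_Ctrl, 273, 339, 223 and 272 CPM in Old_CL and 48.6, 50.5 and 17.3 CPM in Old_Ctrl 1, 3 and 4, a change from young of 4.18 (SE 0.33, adjusted p = 7.8e-07). Sfrp5, a secreted Wnt inhibitor of fat cells, was at 12.9, 15.8, 7.89 and 4.79 CPM and 202, 261, 216 and 190.4 CPM, a change of 4.43 (SE 0.34, adjusted p = 7.39e-07), and stood at 101.5 ± 26.3 CPM (SD, n = 3) with vehicle at 12 months. That no Old_CL library of either gene overlapped a young one follows from how these increases were chosen. Old_Ctrl lay between the groups for Sfrp5. Of 16 imprinted genes 10 were called higher and 1 lower, among them Plagl1, a zinc finger regulator of growth, at 1.94 (SE 0.20, adjusted p = 1.79e-06) and Peg10 at 2.30 (SE 0.25, adjusted p = 2.54e-06). Nnat, an imprinted membrane protein, stayed at the young level, with 2522, 2616, 1735 and 1610 CPM in Young_Ctrl, 1811, 2153, 1885 and 2017 CPM in Old_CL and -0.11 (SE 0.17, adjusted p = 0.599).

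**Figure D4:**
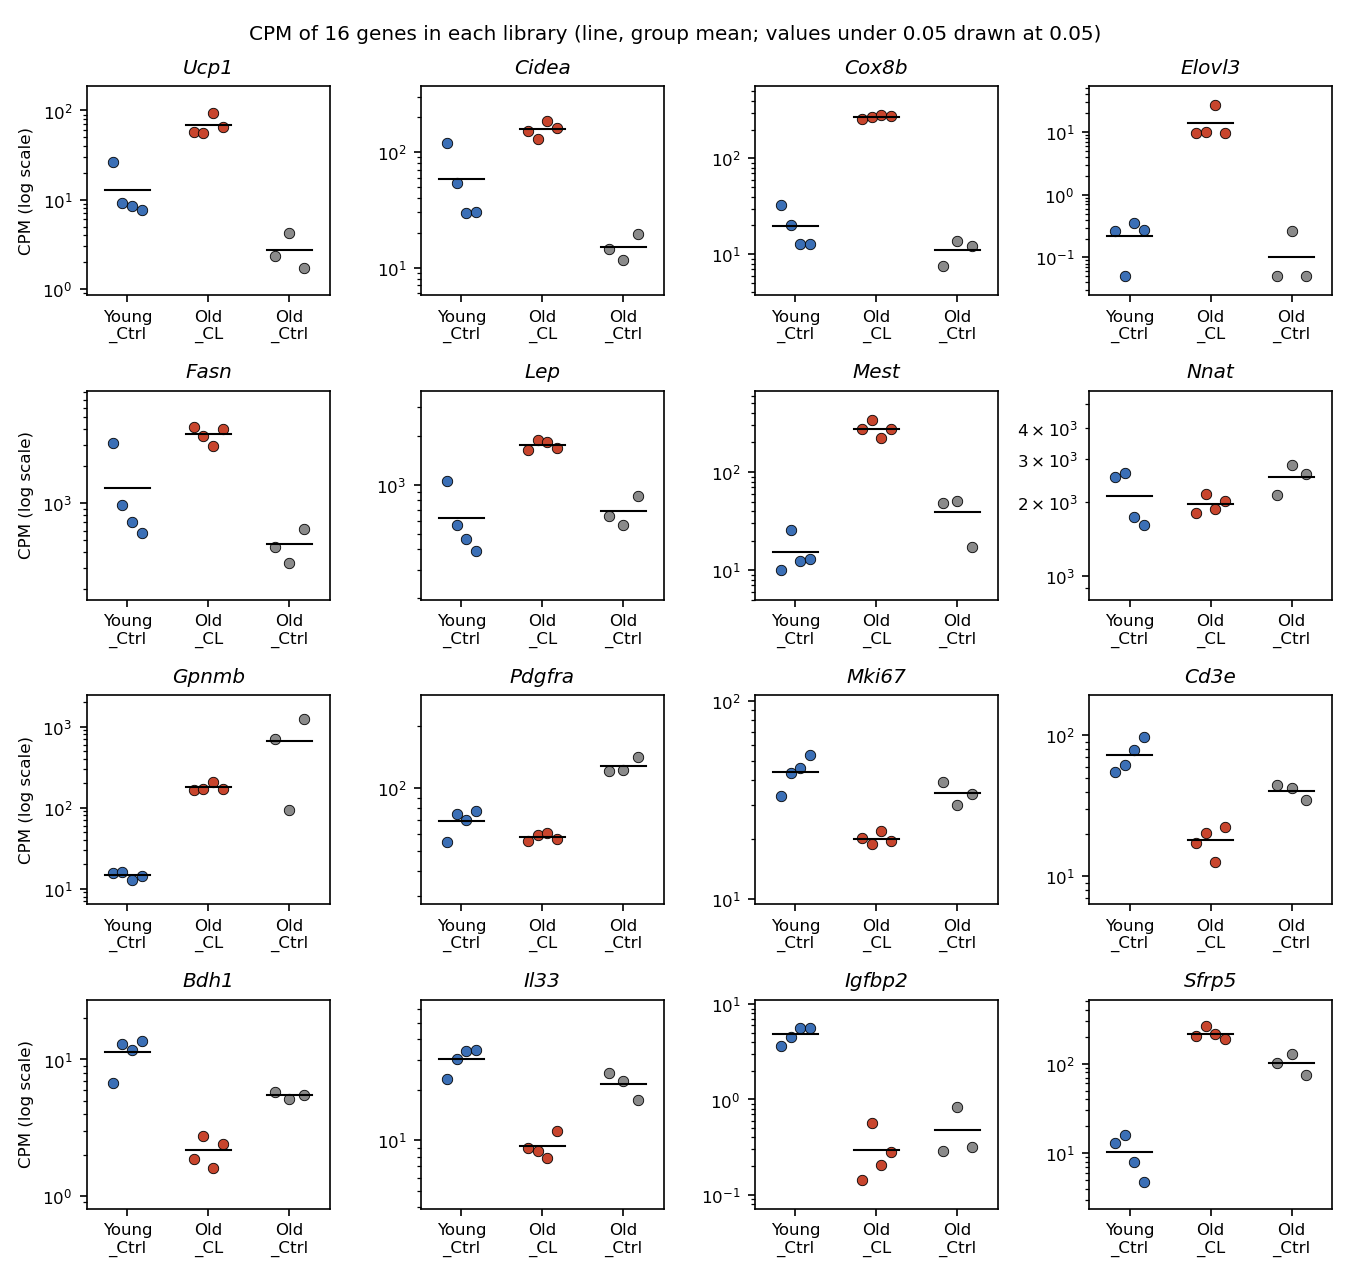
CPM on log axes (vertical) of 16 genes in each library of Young_Ctrl, Old_CL and Old_Ctrl (horizontal), 1 point a library and a line at the group mean, with values under 0.05 CPM drawn at 0.05. Old_CL lies above both vehicle groups for Ucp1, Cidea, Cox8b, Elovl3, Lep and Mest, between them for Gpnmb apart from Old_Ctrl 3, and below both for Mki67, Cd3e, Bdh1 and Il33.

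Genes of lipid-associated macrophages, the cells that clear lipid from fat tissue, stood above the young level both with and without CL at 12 months. Of 16 such genes, 13 were called higher in Old_CL than in Young_Ctrl and none lower, with a median of 1.75. In Old_Ctrl 14 were called higher, where 15.1% of all genes were. Lpl is counted both here and in the adipocyte list, and Plin2 both here and in the list of lipolysis and lipid droplets. Of the 16 intervals, 4 lay wholly above the adipocyte list median of 1.48 (Atp6v0d2, Fabp5, Gpnmb and Mmp12) and 4 wholly below it. Which cells these transcripts came from was not tested. Gpnmb, a membrane glycoprotein of lipid-laden macrophages, was at 15.7, 15.9, 12.9 and 14.3 CPM in Young_Ctrl, 163, 171, 206 and 169.7 CPM in Old_CL and 699, 93.8 and 1224 CPM in Old_Ctrl 1, 3 and 4. Old_CL lay above every young library, and in the vehicle group at 12 months library 3 was far below the others. The change from young was 3.60 (SE 0.50, adjusted p = 7.08e-05). Trem2, a lipid-sensing receptor of these cells, read 3.81, 5.24, 4.85 and 5.12 CPM in Young_Ctrl and 28.2, 27.6, 53.2 and 26.4 CPM in Old_CL, with library 3 highest, a change of 2.82 (SE 0.69, adjusted p = 0.00351). Atp6v0d2, a proton pump subunit, and Mmp12, a macrophage elastase, were among the same 10 increases, at 5.00 (SE 0.97, adjusted p = 0.000382) and 4.05 (SE 0.82, adjusted p = 0.00111). Both were again highest in Old_CL 3, and without it they were 4.64 and 3.65. In Old_Ctrl 3, Trem2 (9.2 CPM), Atp6v0d2 (3.46 CPM) and Mmp12 (4.39 CPM) also lay far below Old_Ctrl 1 and 4. For Mmp12 that library lay within the Young_Ctrl range.

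The general macrophage markers were spread around the young level. Of 20 tested, 3 were called higher, 3 lower and 9 lay within 2-fold, with a median of 0.10 that turned to -0.32 with library totals, to -0.08 without Old_CL 3, and to small negative values under upper-quartile factors, with the muscle score as covariate and without Young_Ctrl 3. Lyz2, a lysozyme of myeloid cells, read 792, 994, 888 and 973 CPM in Young_Ctrl, 742, 769, 1107 and 768 CPM in Old_CL and 1880, 882 and 1701 CPM in Old_Ctrl 1, 3 and 4. Old_CL and Young_Ctrl overlapped, and Old_CL 3 stood highest of its group. Csf1r, the growth factor receptor of macrophages, lay within 2-fold at 0.09 (SE 0.22, adjusted p = 0.73), with 176 ± 33.4 CPM (SD, n = 4) in Young_Ctrl, 187 ± 27.3 CPM (SD, n = 4) in Old_CL and 349 ± 98.6 CPM (SD, n = 3) in Old_Ctrl. Cd68, a lysosomal macrophage marker, changed by 1.22 (SE 0.39, adjusted p = 0.0159), and the call was lost without Old_CL 3 (0.91, adjusted p = 0.0599), without Young_Ctrl 3 (1.12, adjusted p = 0.051) or with library totals (0.79, adjusted p = 0.0822). Timd4, a marker of resident macrophages, fell by 1.03 on the log2 scale (SE 0.21, adjusted p = 0.000719).

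Matrix genes were split around the young level with CL. Of 20 matrix proteins, proteases and lysyl oxidases, 14 were called higher in Old_Ctrl than in Young_Ctrl, against 15.1% of all genes. In Old_CL 6 were called higher, 4 lower and 8 lay within 2-fold without a call, against 33.8%, 29.6% and 28.4% of all genes. Neither called share in Old_CL exceeded that of all genes. Mmp14, a membrane-bound protease, was at 65.4, 90.9, 64.4 and 73.8 CPM in Young_Ctrl, 69.5, 74.8, 74.6 and 70.5 CPM in Old_CL and 212, 119 and 177 CPM in Old_Ctrl 1, 3 and 4, and its change of -0.02 (SE 0.18, adjusted p = 0.915) lay within 2-fold. Young_Ctrl and Old_CL overlapped and Old_Ctrl lay above both. Among those called higher were Acta2, the smooth muscle actin, at 2.22 (SE 0.19, adjusted p = 7.02e-07), Lox, a collagen crosslinking enzyme, at 1.71 (SE 0.20, adjusted p = 5.47e-06), and Bgn, a small proteoglycan, at 1.49 (SE 0.17, adjusted p = 3.29e-06). Of 16 collagens 8 were called higher and 2 lower. Col15a1, of basement membrane zones, rose most at 2.13 (SE 0.31, adjusted p = 4.73e-05), and Col4a1, of the basement membrane, rose by 1.5 (SE 0.23, adjusted p = 4.76e-05). The fibrillar Col1a1 was undecided, with 615, 968, 459 and 504 CPM in Young_Ctrl, 504, 520.3, 547 and 485 CPM in Old_CL, a change of -0.31 (SE 0.41, adjusted p = 0.526) and Old_Ctrl values of 2953, 534 and 1754 CPM. Col3a1 was undecided as well at -0.66 (SE 0.36, adjusted p = 0.118), and it was called lower in a fit of the 2 groups alone (-0.73, adjusted p = 0.00751).

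Vessel and smooth muscle genes leaned above the young level. Of 16 endothelial markers 10 were called higher and none lower, and of 12 smooth muscle and pericyte markers 9 and none. With library totals these counts were 6 higher and 2 lower, and 7 and 2. Vwf, the von Willebrand factor of endothelium, changed by 1.84 (SE 0.20, adjusted p = 2.66e-06) and Flt1, a receptor for vascular growth factor, by 1.24 (SE 0.20, adjusted p = 8.33e-05), while the junction protein Pecam1 lay within 2-fold at 0.23 (SE 0.10, adjusted p = 0.0526) and was called higher with limma-voom (adjusted p = 0.0431) and without Young_Ctrl 1 (adjusted p = 0.0313) or 2 (adjusted p = 0.0424). Cnn1, a calponin of smooth muscle, was at 0.789, 0.946, 0.759 and 0.668 CPM in Young_Ctrl and 6.42, 5.96, 6.05 and 5.06 CPM in Old_CL, a change of 2.90 (SE 0.26, adjusted p = 6.05e-07). Its levels did not overlap between the groups and stood at 3.79 ± 0.293 CPM (SD, n = 3) in Old_Ctrl. All 4 erythrocyte markers tested were higher as well, Alas2, the heme synthesis enzyme of red cells, by 2.12 (SE 0.19, adjusted p = 6.65e-07), and their summed level was 139.6 to 208 CPM in Young_Ctrl and 518 to 644 CPM in Old_CL. The part of blood content in the endothelial values was not tested.

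Fatty acid synthesis was split between genes that passed the young level and genes that lay within 2-fold of it. Of 20 lipogenic genes 11 were called higher, 8 lay within 2-fold and none was called lower, which became 3 lower with relative log expression or upper-quartile factors or DESeq2, and 6 lower with library totals. Of all genes 33.8% were called higher, 28.4% lay within 2-fold without a call and 29.6% were called lower. Fasn, the fatty acid synthase, was at 3123, 969.6, 705 and 575 CPM in Young_Ctrl, 4143, 3541, 2913 and 4000 CPM in Old_CL and 442, 329 and 617 CPM in Old_Ctrl 1, 3 and 4. Young_Ctrl 1 lay among the Old_CL values and the other young libraries lay below. The change was 1.44 (SE 0.42, adjusted p = 0.00882), 2.28 without Young_Ctrl 1, and the call was lost when Old_CL 1, 2 and 4 were summed (1.34, adjusted p = 0.05). Acacb, the acetyl-CoA carboxylase of mitochondria, rose by 2.21 (SE 0.30, adjusted p = 2.52e-05), and Slc25a1, the citrate carrier, by 2.04 (SE 0.21, adjusted p = 1.63e-06). Acly, which makes cytosolic acetyl-CoA, lay within 2-fold, with 280.4, 181, 156 and 149 CPM in Young_Ctrl, 218, 210.2, 194 and 219 CPM in Old_CL and a change of 0.14 (SE 0.23, adjusted p = 0.62). Srebf1, the transcription factor of lipogenic genes, lay within 2-fold too, at 0.33 (SE 0.23, adjusted p = 0.217), and was called higher without Young_Ctrl 1 (0.57, adjusted p = 0.021). In Old_Ctrl 1, 3 and 4 Acly stood at 145.5, 137.7 and 141.2 CPM and Srebf1 at 423, 282 and 393 CPM. Elovl6, the elongase of palmitate, was undecided: it read 61.8, 23.8, 24.1 and 25 CPM in Young_Ctrl and 21.2, 19.7, 13.4 and 24 CPM in Old_CL, a change of -0.77 (SE 0.34, adjusted p = 0.0612). Young_Ctrl 1 stood far above the rest, and the change was -0.32 without it (adjusted p = 0.321). Elovl6 was called lower with relative log expression factors (adjusted p = 0.0483), upper-quartile factors (0.0331), DESeq2 (0.0164), the 2 groups alone (0.0364), the replicate block (-0.69, adjusted p = 0.0136), without Young_Ctrl 2 (0.0436) and with library totals (-1.16, adjusted p = 0.00491). Acaca, the cytosolic acetyl-CoA carboxylase, was called at 0.70 (SE 0.26, adjusted p = 0.03), a call that 10 of the alternatives other than the lymph node covariate removed.

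Cholesterol synthesis was below the young level with vehicle at 12 months in 10 of 19 genes and above it in none. Of all genes 12.2% were below and 15.1% above. With CL, 7 were called higher than young, 5 lower and 7 lay within 2-fold without a call. The called shares were near those of all genes, of which 33.8% were called higher and 29.6% lower. The median was 0.11, and it was negative with library totals (-0.32). Sqle, the squalene epoxidase, was at 11.9 ± 1.8 CPM (SD, n = 4) in Young_Ctrl, 9.76 ± 0.668 CPM (SD, n = 4) in Old_CL and 7.05 ± 0.854 CPM (SD, n = 3) in Old_Ctrl, and lay within 2-fold of the young level at -0.28 (SE 0.14, adjusted p = 0.0954). It was called lower with upper-quartile factors (-0.39, adjusted p = 0.0187), in the 2 groups alone (adjusted p = 0.0352), without Young_Ctrl 2 (adjusted p = 0.0411) and with library totals (-0.70, adjusted p = 0.000261). Insig1, which retains the sterol sensor in the endoplasmic reticulum, passed it by 2.46 (SE 0.24, adjusted p = 1.31e-06). Srebf2, the transcription factor of the pathway, was below it, at -1.06 (SE 0.09, adjusted p = 6.45e-07).

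Lymphocyte genes missed the young level. All 16 T cell markers, all 13 B cell and lymph node markers and 9 of 10 natural killer and cytotoxic markers were called lower, with medians of -2.01, -1.82 and -1.76. Cd3e, part of the T cell receptor complex, was at 55, 61.4, 78.5 and 96.8 CPM in Young_Ctrl, 17.3, 20.4, 12.7 and 22.6 CPM in Old_CL and 44.7, 42.5 and 34.7 CPM in Old_Ctrl 1, 3 and 4. The 3 groups did not overlap, and Old_CL was lowest, with a change from young of -2.01 (SE 0.18, adjusted p = 7.05e-07). Cd79a, part of the B cell receptor, read 216, 266, 269 and 260.4 CPM in Young_Ctrl, 80.2, 88.1, 75.4 and 84.5 CPM in Old_CL and 147, 143 and 71.3 CPM in Old_Ctrl, a change of -1.62 (SE 0.17, adjusted p = 2.46e-06). Old_Ctrl 4 lay below the Old_CL values and the other Old_Ctrl libraries above them. Glycam1, an adhesion molecule of lymph node venules, fell by 2.01 on the log2 scale (SE 0.12, adjusted p = 4.28e-08), and its Old_Ctrl values of 15.8, 12.1 and 13.1 CPM were as low as those of Old_CL at 14.6, 17.8, 16.1 and 14.8 CPM. Of the 10 largest decreases of genes with a mean log2 CPM of 3 or more and no overlap, several were lymphocyte genes as well: Themis, a regulator of T cell selection, at -2.68 (SE 0.32, adjusted p = 7.05e-06), Ccr9, a chemokine receptor of T cells, at -2.66 (SE 0.27, adjusted p = 1.86e-06), and Ms4a4b, a T cell membrane protein, at -2.56 (SE 0.22, adjusted p = 7.92e-07). Itm2a, a membrane protein also found in T cells, was at 49.99, 47.9, 52.9 and 53.7 CPM in Young_Ctrl and 8.84, 8.4, 8.32 and 8.95 CPM in Old_CL, a change of -2.57 (SE 0.16, adjusted p = 7.71e-08).

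Antigen presentation and interferon genes were below the young level alongside them. All 10 class II genes were called lower with a median of -1.05, and 13 of 16 interferon response genes with a median of -0.88. H2-Aa, a chain of the class II molecule, changed by -1.06 (SE 0.12, adjusted p = 3.29e-06), and its Old_Ctrl mean of 939 ± 59.7 CPM (SD, n = 3) stood beside a young mean of 1046 ± 157 CPM (SD, n = 4). Irgm1, an interferon-induced GTPase, changed by -1.38 (SE 0.13, adjusted p = 1.12e-06). The alarmin Il33, which is made by stromal cells of fat, was at 23.3, 30.6, 33.9 and 34.3 CPM in Young_Ctrl, 8.99, 8.59, 7.85 and 11.4 CPM in Old_CL and 25.1, 22.5 and 17.3 CPM in Old_Ctrl 1, 3 and 4, a change of -1.74 (SE 0.19, adjusted p = 2.28e-06). All Old_CL libraries lay below all others. Gata3, a transcription factor of T and innate lymphoid cells, changed by -1.63 (SE 0.18, adjusted p = 2.92e-06).

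Progenitor, proliferation and nerve sheath genes also missed the young level in part. Of 16 progenitor and stromal markers 7 were called lower, 2 higher and 4 lay within 2-fold without a call. Of all genes 29.6%, 33.8% and 28.4% did so. Dpp4, which marks early progenitors, was at 82.2, 101.3, 132 and 162 CPM in Young_Ctrl, 40.9, 36.9, 32.6 and 44 CPM in Old_CL and 136, 135 and 108 CPM in Old_Ctrl, a change of -1.63 (SE 0.25, adjusted p = 6.4e-05). The 2 vehicle groups overlapped and Old_CL lay below both. Icam1, an adhesion molecule of committed preadipocytes and other cells, changed by -1.02 (SE 0.11, adjusted p = 1.61e-06). Pdgfra, the general progenitor receptor, lay within 2-fold with 55, 75.4, 70.1 and 77.3 CPM in Young_Ctrl, 55.4, 59.7, 60.8 and 56.9 CPM in Old_CL and -0.26 (SE 0.16, adjusted p = 0.175), and was at 128 ± 11.4 CPM (SD, n = 3) in Old_Ctrl. It was called lower in the fit of the 2 groups alone (-0.32, adjusted p = 0.0277) and with library totals (-0.69).

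Of 25 cell cycle genes 21 were called lower and none higher, with a median of -0.77. Mki67, the proliferation antigen, read 33.3, 43.3, 45.6 and 53.5 CPM in Young_Ctrl, 20.4, 18.9, 22 and 19.6 CPM in Old_CL and 39.2, 29.9 and 33.9 CPM in Old_Ctrl, a change of -1.12 (SE 0.15, adjusted p = 1.5e-05) with no overlap. Mcm3, a subunit of the replicative helicase, changed by -1.08 (SE 0.11, adjusted p = 1.12e-06). Lymphocytes divide too, and the T cell score was also lower in Old_CL than in Young_Ctrl. Within Old_CL, library 3, which stood apart in other lists too, had the lowest T cell score (3.97) and the highest cell cycle score (3.17). The part of lymphocytes in the result was not tested. Cdkn1a, the cell cycle inhibitor p21, passed the young level by 1.38 (SE 0.15, adjusted p = 2.58e-06), with 56.2, 68.9, 64.8 and 53.8 CPM in Old_CL and 50.7, 46.3 and 78.8 CPM in Old_Ctrl. Cdkn2a, the inhibitor p16, stood at 1.58, 1.12, 0.876 and 1.06 CPM in Young_Ctrl, 1.14, 0.94, 1.32 and 0.89 CPM in Old_CL and 5.33, 2.49 and 2.41 CPM in Old_Ctrl, and lay within 2-fold of young at -0.04 (SE 0.38, adjusted p = 0.926). Lmnb1, a nuclear lamina protein, was lower, at -1.43 (SE 0.13, adjusted p = 6.81e-07).

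Of 12 Schwann cell and nerve markers 8 were called lower and 2 higher. Cytosolic ribosomal proteins were below the young level in 19 of 20 cases with a median of -0.61, although 18 of the 20 intervals lay within 2-fold. Reads shared with processed pseudogenes make single ribosomal protein genes uncertain. Proteasome subunits went the other way, with 17 of 20 called higher and a median of 0.46, against 6 higher, 3 lower and a median of 0.04 with library totals. Of 20 immediate early genes 13 were called lower and 2 higher. Egr1, an early response transcription factor, was at 65.2, 187, 79.7 and 69.1 CPM in Young_Ctrl, with library 2 apart, and 15.1, 18.9, 21.1 and 15.8 CPM in Old_CL, a change of -2.50 (SE 0.29, adjusted p = 8.98e-06).

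Single metabolic and growth signaling genes also stood away from the young level. Bdh1, the mitochondrial enzyme that converts between the ketone bodies, was at 6.71, 12.9, 11.7 and 13.8 CPM in Young_Ctrl, 1.85, 2.76, 1.62 and 2.39 CPM in Old_CL and 5.76, 5.13 and 5.49 CPM in Old_Ctrl 1, 3 and 4, a change of -2.41 (SE 0.21, adjusted p = 6.19e-07). The groups did not overlap, and Old_CL was lowest. Of the other 9 ketone body genes 7 were called higher, such as Oxct1, which activates ketone bodies for oxidation, at 1.63 (SE 0.17, adjusted p = 1.74e-06) and Acss3 at 2.11 (SE 0.17, adjusted p = 4.86e-07). Igfbp2, a binding protein of insulin-like growth factors, was at 3.68, 4.56, 5.61 and 5.57 CPM in Young_Ctrl, 0.143, 0.564, 0.206 and 0.278 CPM in Old_CL and 0.288, 0.825 and 0.319 CPM in Old_Ctrl, a change of -4.06 (SE 0.42, adjusted p = 1.05e-06). Both 12-month groups lay below every young library. Igfbp2 was under 3 counts in Old_CL 1 (0.214 CPM at 3 counts), so the size of its change is uncertain. Slc2a1, the basal glucose transporter, fell by 0.59 on the log2 scale (SE 0.08, adjusted p = 1.91e-05) while Ldhb, a lactate dehydrogenase subunit, rose by 1.30 (SE 0.18, adjusted p = 1.67e-05). Igf1, the growth factor itself, was slightly above the young level at 0.47 (SE 0.14, adjusted p = 0.00864), and the call was lost when Old_CL 1, 2 and 4 were summed (adjusted p = 0.0566) or with library totals (adjusted p = 0.71). Npr3, the clearance receptor for natriuretic peptides, which oppose fat storage, was above it at 1.22 (SE 0.26, adjusted p = 0.000935).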

How the data were processed

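RNA was selected for polyadenylated transcripts and sequenced from whole inguinal pads, per the labels' protocols. The deposited values are whole-number read counts per gene. Per the submitters' processing notes, STAR, Subread and featureCounts were used with the mouse build mm9. Their versions and the strand setting are not given in the sources used here. The table was read as deposited. No column was left without a sample. Low-count genes were removed with edgeR's filterByExpr by group, and counts were scaled by TMM. All 15 libraries were fitted in 1 quasi-likelihood model with robust dispersion and 4 group means (edgeR 4.0.16, limma 3.58.1 and R 4.3.3), and Old_CL was contrasted with Young_Ctrl. P-values were adjusted by the Benjamini-Hochberg method over all 15288 genes. Intervals are at 95%. Every adjusted p in the text is from this test unless another tool is named. Changes are log2, Old_CL over Young_Ctrl. List scores are mean log2 CPM with a prior count of 2. Of the genes tested, 37 had counts identical to another gene in every library, in 18 sets. On simulated counts for 15166 genes of this comparison, 79% of 2-fold and 97% of 4-fold genes were called, and 4.35% of calls were unchanged genes. The simulation changed only a small share of the genes, equally in both directions, whereas 63.4% were called in the data. These rates are therefore not the error rates of the calls reported here.

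Named genes were a panel of 42 genes, the 10 largest called changes in each direction without overlap and with a mean log2 CPM of 3 or more, and in each list up to 4 members with the smallest p and up to 3 within 2-fold with the narrowest interval. The members, lists and panel were chosen with earlier results of these data known. Same-numbered libraries of both groups did not deviate together (r = -0.139, 0.001, -0.347 and 0.0627), so no pairing was used. Alternatives were other scalings, filters and tools (DESeq2 1.42.0 and limma-voom among them), leaving out each library, and muscle or lymph node scores as covariates. Library totals as scaling, scaling to the adipocyte list and leaving out Old_CL 3 and Young_Ctrl 1 together were added after seeing the data. No genome of the files' build was used, so no coordinates are given. Some genes are not reported here.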

Additional observations from a re-analysis of the deposited data

Results flagged for a closer look

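Within each group of 4 libraries, the named genes and list scores were searched for a library that stood apart from the other 3, by Dixon's 95% criterion on the gap to its neighbor. Of 416 series of values examined 49 had such a library, and chance gives about 1 in 20. Old_CL 3 was the high library in 22 and the low one in 6, and Young_Ctrl 1 was the high library in 12 and the low one in 2.

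Old_CL 3 was highest, with the range of the other Old_CL libraries given after its value, for Acaa1b (223 CPM against 140.4 to 148), Atp6v0d2 (52.4 CPM against 24.8 to 25.2), Cd68 (155 CPM against 75.1 to 85.8), Cyc1 (618 CPM against 529 to 535), Elovl3 (27.2 CPM against 9.77 to 10.03), Kif11 (5.44 CPM against 4.11 to 4.26), Lyz2 (1107 CPM against 742 to 769), Mdh2 (959 CPM against 758 to 792), Mgll (2049 CPM against 1850 to 1872), Mmp12 (98.8 CPM against 41.9 to 45), Mpc2 (289 CPM against 222 to 225), Ndufa9 (277 CPM against 233 to 237), Psmb7 (190.4 CPM against 148 to 152), Retn (1541 CPM against 1341 to 1363) and Trem2 (53.2 CPM against 26.4 to 28.2). Its mean log2 CPM also stood above the others for Cell cycle genes (3.17), Creatine and calcium cycling (4.57), ER stress and integrated stress response (6.81), Lipid-associated macrophage genes (8.47), Mitochondrial ribosomal proteins (5.76), Oxidative phosphorylation (8.48) and Skeletal muscle markers (6.84). It was lowest for H2-Ob (42.2 CPM against 63.6 to 65.2), Icam1 (36.8 CPM against 42.6 to 43.4), Ms4a4b (16.1 CPM against 24.7 to 26.1), Prdm16 (16.8 CPM against 25.1 to 25.6) and Vwf (75.2 CPM against 96.6 to 99.1), and its mean log2 CPM for the T cell markers was low at 3.97.

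Young_Ctrl 1 was highest for Adrb3 (592 CPM against 231 to 260.5), Asns (67.3 CPM against 34.3 to 37.8), Elovl6 (61.8 CPM against 23.8 to 25), Fasn (3123 CPM against 575 to 969.6), Idh3a (179.9 CPM against 82.2 to 97.1), Myh7 (1.97 CPM against 0.344 to 0.501), Oxct1 (249 CPM against 154 to 169.9), Psmb7 (91.4 CPM against 67.2 to 68.8), Slc25a20 (61.8 CPM against 32.8 to 35.3) and Ucp1 (26.4 CPM against 7.74 to 9.11). Its mean log2 CPM was high for Mitochondrial ribosomal proteins (5.13) and Proteasome subunits (6.47). It was lowest for Btg2 (142 CPM against 198 to 208) and Cd79a (216 CPM against 260.4 to 269). Young_Ctrl 2 was highest for Egr1 (187 CPM against 65.2 to 79.7) and G0s2 (474 CPM against 242 to 272). Young_Ctrl 4 was highest by mean log2 CPM for Interferon response (5.64). Old_CL 1 was highest for Plin5 (66 CPM against 58.9 to 59.7). Old_CL 2 was highest for Col4a1 (1839 CPM against 1668 to 1680) and, by mean log2 CPM, for Senescence and arrest genes (4.97). Old_CL 4 was lowest for Lipe (3496 CPM against 3613 to 3637).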

How the results depend on the processing

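No gene called in 1 direction was called in the other under any alternative, apart from 62 genes with library totals and 3793 with scaling to the adipocyte list. Called genes numbered 9383 to 9871 over relative log expression and upper-quartile factors, DESeq2, limma-voom, other filters, a fit of the 2 groups alone and the replicate block, and 9531 with the muscle score as covariate. With upper-quartile factors the calls split into 4408 higher and 5295 lower. The replicate numbers are shared by label only. With the replicate block 9383 genes were called (5059 higher, 4324 lower) and 8372 lay within 2-fold. Leaving out 1 library at a time gave 8656 to 10096 calls, 4650 to 5453 higher and 4006 to 4643 lower, with 7911 to 8676 genes within 2-fold. Summing Old_CL 1, 2 and 4 into 1 sample gave 8266 (4447 higher, 3819 lower). A bound of 1.5-fold left 4227 genes within it.

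When the lymph node score entered as covariate, 14 genes were called (12 higher, 2 lower), 2105 had an unadjusted p under 0.05 and 4549 lay within 2-fold. The score separates both groups, and the median SE rose to 0.41. Under it the sign turned, among named genes that had been called, for Cidea (-0.42), Fasn (-0.036), Lep (-0.0078), Igf1 (-0.041), Cd68 (-0.059), Trem2 (-0.49), Cd79a (0.18) and Timd4 (0.33). With library totals 10471 genes were called, 2699 higher and 7772 lower, and Fads1 (-0.35), Txnrd1 (-0.37) and Egfl7 (-0.34), not called before, were called lower. Scaling to the adipocyte list gave 13907 calls, 285 higher and 13622 lower, with 1431 within 2-fold. Lists and single named genes were not evaluated under that scaling. The cause of these shifts was not tested. Depth limits genes near 3 counts, which is 0.395 CPM in the shallowest of the 8 libraries.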
